A study of Mus musculus with 9 samples.

Results

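C2C12 cells, an established mouse myoblast line that is grown as dividing precursors and can be made to fuse into muscle fibres, were compared 48 h after transfection with an siRNA against Cugbp1 or with a control siRNA. Cugbp1 is the older name of Celf1. All arrays of the 2 siRNA groups were used, 3 for Cugbp1 siRNA and 3 for control siRNA, which makes 6 of the 9 arrays of the series. The other 3 arrays, from cells given an siRNA against Mbnl1, entered no mean of the contrast. They served to show where the response to Cugbp1 siRNA departed from the response to another siRNA. They also entered the filter on weak signals described below, the gene values and the estimate of spread behind each test. All cells were lysed at 48 h, had been kept in serum-containing growth medium, and gave 100 ng of total RNA to each array. The labels name the siRNA by its target alone. Nothing in them tells whether replicates came from separate cultures. The p-values therefore reflect array-to-array spread, which may be technical.

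CELF1 is an RNA-binding protein of nucleus and cytoplasm. It binds GU-rich elements, recruits deadenylases such as PARN to destabilise many short-lived mRNAs, and controls the inclusion of alternative exons. In heart and skeletal muscle its level falls after birth while nuclear MBNL1 increases, and the pair often push the same exons in opposite directions. In myotonic dystrophy CELF1 is raised and MBNL1 is sequestered, which returns many exons to their fetal form.

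Of 20 markers of myoblasts and muscle, 15 lay above the filter on weak signals (a mean log2 intensity of 7 over all arrays). In the control group the myogenic regulator Myf5 stood at 10.17, Myod1 at 9.61, the adhesion gene Cdh15 at 9.92 and the filament gene Des at 11.88 on the log2 scale. Myog, the factor of early fusion, was not among the genes tested. Of 22 markers of blood, endothelium, epithelium, nervous system, liver, fat and bone, 19 were named on the array. Of these 13 were tested and lay between 7.36 and 8.73. Those 13 moved with the comparison: 7 were called lower after Cugbp1 siRNA and 0 higher, with a median of -0.24, and their summed intensity was 3428 to 3518 on the control arrays and 2854 to 3076 on the Cugbp1 siRNA arrays. Median intensity over all probe sets was also lower, 42.29 to 42.79 against 43.59 to 43.82. Both shifts were present after Mbnl1 siRNA too (a median of -0.21 for the 13 markers and array medians of 42.47 to 42.91), and their part in the results below was not tested.

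The siRNA target was low on each Cugbp1 siRNA array. The gene value of Celf1, a median polish of its 25 probe sets, was 10.11, 10.14 and 10.14 on the control arrays and 8.60, 8.60 and 8.81 on the Cugbp1 siRNA arrays. The groups were far apart, and 36.4% of the control level remained (95% interval 33.2% to 39.8%; log2 change -1.46, SE 0.06, n = 3 a group, limma with Benjamini-Hochberg, adjusted p = 1.14e-06). Across its probe sets the change ranged from -1.88 to 0.56, with 24 of 25 lower, 20 of them at least 2-fold. The groups did not overlap in 23 of the 25, among them the 1 that was higher. The single Celf1 probe set that was higher (4717967) rose from 8.80, 8.96 and 8.88 to 9.55, 9.17 and 9.59 while the rest of its gene fell. Whether it lies in an exon of the main transcripts is not known here, since no probe set coordinates were used. Mbnl1 itself read 11.47, 11.46 and 11.44 on the controls and 11.43, 11.51 and 11.56 after Cugbp1 siRNA, a difference of 0.05 that did not pass the test (limma with Benjamini-Hochberg, adjusted p = 0.473).

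Against control, 4902 of 12646 genes (38.8%) were called at an adjusted p under 0.05 (limma with Benjamini-Hochberg), 3293 higher (26%) and 1609 lower (12.7%). Most of these changes were small, and 3960 genes were called with the 6 arrays of the contrast alone. Called changes had a median size of 0.25 on the log2 scale, and arrays of the groups did not overlap in 48.8% of genes. A total of 108 genes (0.854%) changed at least 1.5-fold, 84 of them higher (0.664%) and 24 lower (0.19%). The direction of the small changes depended on how the arrays were scaled, with 1372 genes higher and 3206 lower when arrays were centred on the probe sets kept. Against Mbnl1 siRNA 1186 genes (9.38%) were called. Genes called in the same direction against control and against Mbnl1 siRNA numbered 437 (3.46%), 311 higher (2.46%) and 126 lower (0.996%). Both contrasts use the same Cugbp1 siRNA arrays, so this is a count and not a test of its own. It was 246 without Cugbp1 siRNA replicate 2, and 244, 232 and 257 without Mbnl1 siRNA replicates 1, 2 and 3.

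**Figure D1:**
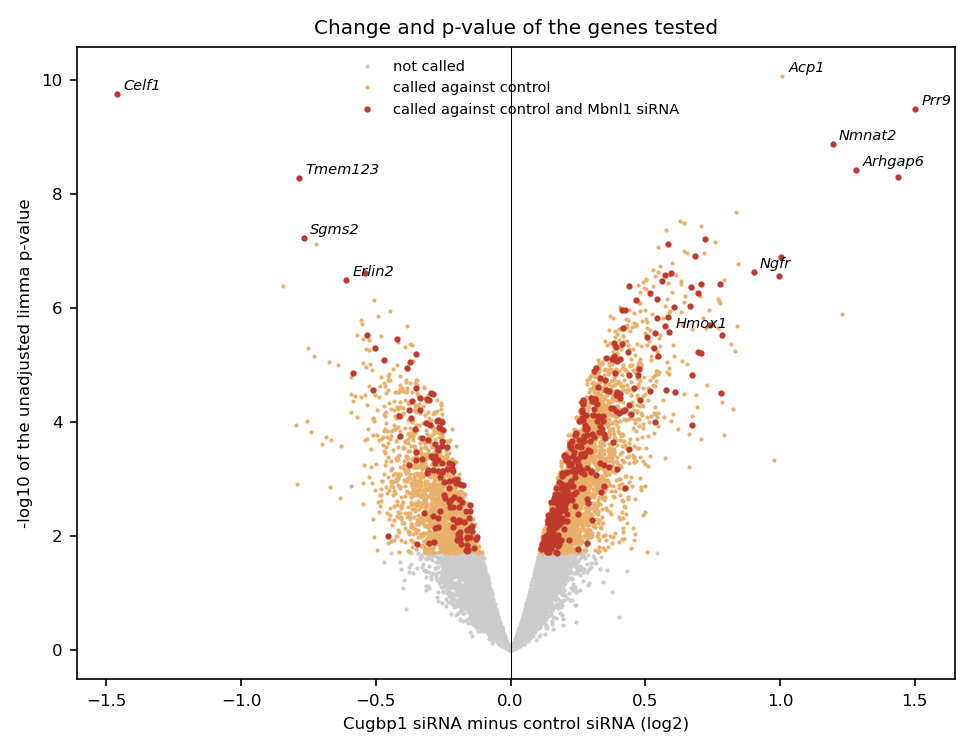
Each point is 1 of the 12646 genes tested, with its log2 difference between Cugbp1 siRNA and control on the horizontal axis and the unadjusted limma p-value as its negative log10 on the vertical axis. Celf1 stands alone at -1.46, Prr9 is farthest right at 1.5, and the 437 genes in red were also called against Mbnl1 siRNA.

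The genes that rose most against both other groups included Arhgap6 and several cell-surface receptors. Arhgap6 read 7.01, 7.05 and 7.12 on the controls and 8.30, 8.45 and 8.28 after Cugbp1 siRNA. That is 244% of control (log2 change 1.28, SE 0.07, n = 3 a group, limma with Benjamini-Hochberg, adjusted p = 9.55e-06), well clear of the 7.29 to 7.54 seen after Mbnl1 siRNA. Ngfr, the p75 neurotrophin receptor that myoblasts are known to carry, went from 8.08, 8.08 and 8.21 to 9.09, 9.13 and 8.85 and lay at 8.03 to 8.18 after Mbnl1 siRNA. The 3 Cugbp1 siRNA arrays stood above all 6 others, at 187% of control (log2 change 0.90, SE 0.08; adjusted p = 9.72e-05). F2r, the thrombin receptor PAR1, was abundant at 10.55, 10.49 and 10.62 and rose to 11.12, 11.05 and 11.04, which is 143% of control (adjusted p = 0.000115). P2ry10b, a G protein-coupled receptor gene, read 7.70, 7.58 and 7.67 on the controls and 8.06, 8.32 and 8.39 after Cugbp1 siRNA (log2 change 0.61, adjusted p = 0.000887). Neither receptor was called after Mbnl1 siRNA, where F2r differed from control by -0.07 and P2ry10b by 0.14. In each of these 4 genes the Cugbp1 siRNA arrays overlapped with no other array.

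The other genes among these 10 were Hmox1, Il33, Prr9, Krt13, Plpp3 and Pag1. Hmox1, the haem-degrading enzyme of the oxidative stress response, went from 9.47, 9.59 and 9.48 to 10.20, 10.07 and 10.04. Its change of 0.59 (SE 0.06, n = 3 a group, limma with Benjamini-Hochberg, adjusted p = 0.000259) ran opposite to its change of -0.23 after Mbnl1 siRNA (adjusted p = 0.0155). Il33, a cytokine of the interleukin-1 family that is stored in nuclei, rose from 7.52, 7.61 and 7.61 to 8.23, 8.42 and 8.43 (log2 change 0.78, adjusted p = 0.000101), against 0.24 after Mbnl1 siRNA. Prr9, a small proline-rich protein of cornified epithelium, had the largest rise of all genes with at least 6 probe sets. It went from 8.32, 8.25 and 8.20 to 9.80, 9.80 and 9.69, 283% of control, and was also up after Mbnl1 siRNA by 0.92, so that the Cugbp1 siRNA arrays exceeded those by 0.58 (adjusted p = 0.000525). Krt13, an epithelial keratin, rose by 0.58, the lipid phosphate phosphatase gene Plpp3 by 0.51 and the membrane adaptor gene Pag1, which recruits the kinase Csk, by 0.54. These last 3 differed from control by -0.02, -0.01 and 0.03 after Mbnl1 siRNA. All 10 genes kept both calls under the scalings, without the filter and with the replicate block. They also kept both when any single control or Cugbp1 siRNA array was left out. The call against control held with the 6 arrays alone, and that against Mbnl1 siRNA when any single Mbnl1 siRNA array was left out. Other alternatives were not checked gene by gene.

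**Figure D2:**
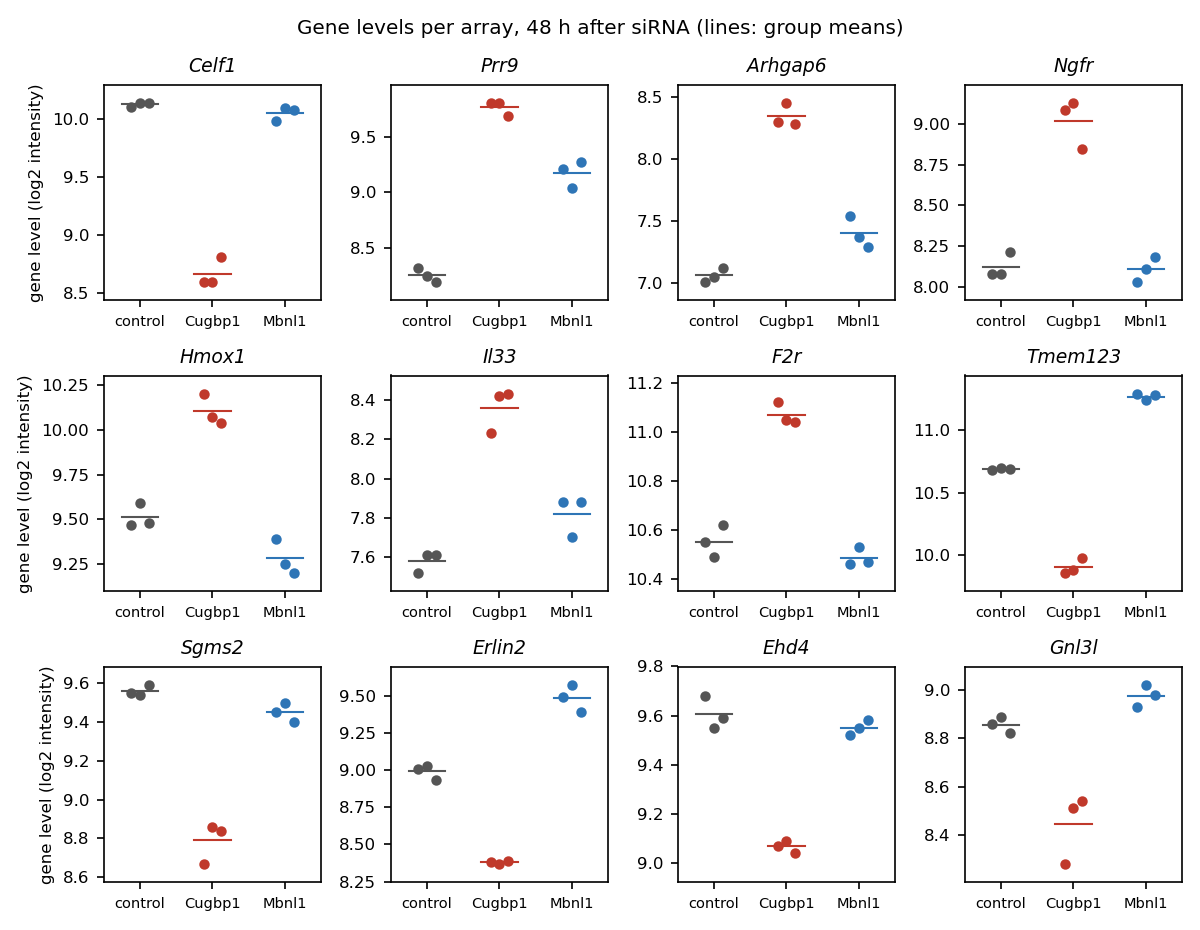
Points give the gene level (log2 intensity, vertical axis, a range of its own in each panel) on single arrays of control, Cugbp1 siRNA and Mbnl1 siRNA cells, and lines give the mean of 3 arrays. Celf1 and the genes of the bottom row are low only on the Cugbp1 siRNA arrays, while Hmox1 and Tmem123 move to opposite sides of the controls after the siRNAs.

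The largest falls against both other groups, after Celf1, were those of Tmem123, Sgms2 and Erlin2. Tmem123, a transmembrane mucin-like protein also called porimin, read 10.68, 10.70 and 10.69 on the controls and 9.86, 9.88 and 9.98 after Cugbp1 siRNA. It fell to 58% of control (95% interval 54.1% to 62.1%; log2 change -0.79, SE 0.04, n = 3 a group, limma with Benjamini-Hochberg, adjusted p = 9.55e-06), with array values that were close together within each group. Sgms2, which makes sphingomyelin at the plasma membrane, went from 9.55, 9.54 and 9.59 to 8.67, 8.86 and 8.84, or 58.7% of control (log2 change -0.77; adjusted p = 5.65e-05). After Mbnl1 siRNA Sgms2 stood at 9.40 to 9.50, so the low arrays were those of Cugbp1 siRNA. Erlin2, a protein of endoplasmic reticulum lipid rafts that takes part in the degradation of inositol trisphosphate receptors, fell from 9.01, 9.03 and 8.93 to 8.38, 8.37 and 8.39 (65.5% of control; adjusted p = 9.94e-05). Ehd4, an ATPase of endosomal recycling, fell from 9.68, 9.55 and 9.59 to 9.07, 9.09 and 9.04 (adjusted p = 9.72e-05).

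Falls of similar size were seen in 5 other genes of the same group. The lectin gene Siglecg fell by 0.53, the stromelysin gene Mmp10 by 0.51, the Golgi protein gene Tvp23b by 0.50, the palmitoyltransferase gene Zdhhc2 by 0.47 and the nucleolar GTPase gene Gnl3l by 0.41 on the log2 scale. The lowest adjusted p among them was 0.000279 and the highest 0.00147 (limma with Benjamini-Hochberg). In each the Cugbp1 siRNA arrays lay below all controls. Siglecg, Tvp23b, Zdhhc2 and Gnl3l differed from control by 0.00 to 0.12 after Mbnl1 siRNA, none of them called. The 10 genes that fell, Celf1 included, also kept both calls under the settings checked for the 10 that rose.

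Several genes moved to opposite sides of the controls after the siRNAs. In 64 of the 12646 genes both responses were called, with opposite signs, and the siRNAs differed from each other. Of these, 28 were higher and 36 lower after Cugbp1 siRNA. Tmem123 was down by 0.79 after Cugbp1 siRNA and up by 0.58 after Mbnl1 siRNA, a difference of -1.36 (limma with Benjamini-Hochberg, adjusted p = 2.58e-07). Erlin2 had changes of -0.61 and 0.49 (difference -1.10, adjusted p = 2.94e-06) and Mmp10 changes of -0.51 and 0.42 (difference -0.93, adjusted p = 6.84e-05). Cmah, which makes N-glycolylneuraminic acid, had changes of -0.23 and 0.75, the macrophage elastase gene Mmp12 -0.28 and 0.52, and the semaphorin gene Sema7a -0.23 and 0.48. The scaffold gene Sorbs2, whose transcripts are spliced differently in myotonic dystrophy, read 7.53, 7.49 and 7.49 on the controls and 7.15, 7.17 and 7.25 after Cugbp1 siRNA. It fell by 0.31 and was up by 0.47 after Mbnl1 siRNA (difference -0.78, adjusted p = 1.36e-05). Higher after Cugbp1 siRNA and lower after Mbnl1 siRNA were Hmox1 (0.59 and -0.23), the sialomucin gene Podxl (0.24 and -0.36) and the receptor kinase gene Mertk (0.23 and -0.27). Cmah, Mmp12, Sema7a, Sorbs2, Podxl and Mertk were picked here from the 64 after their values were seen. Both responses are measured against the same 3 control arrays. The difference between the siRNAs uses no control mean, although the control arrays enter the spread of its test.

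**Figure D3:**
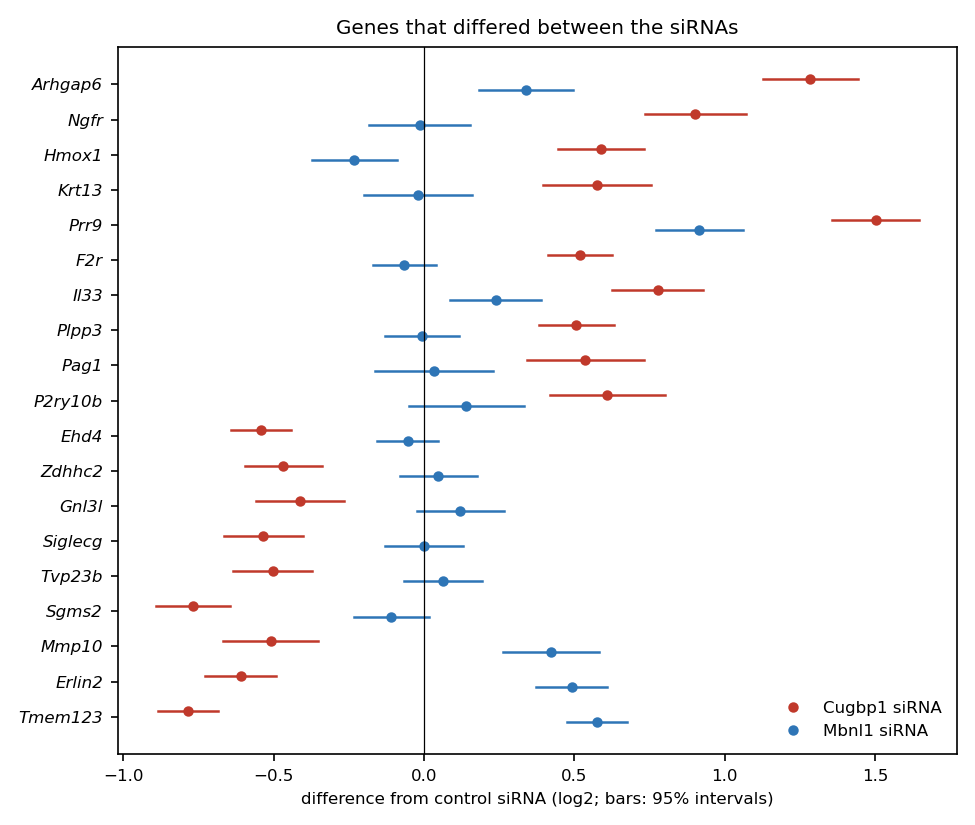
For 19 genes called against both control and Mbnl1 siRNA, the points give the log2 difference from control after Cugbp1 siRNA (red) and after Mbnl1 siRNA (blue), with 95% intervals from limma. The Cugbp1 siRNA points of Tmem123, Erlin2 and Mmp10 lie left of 0 and their Mbnl1 siRNA points right of it, and Hmox1 shows the reverse.

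Other large changes against control were shared with Mbnl1 siRNA. Acp1, a low-molecular-weight tyrosine phosphatase, rose from 8.26, 8.25 and 8.31 to 9.28, 9.27 and 9.28 (log2 change 1.01, SE 0.04, n = 3 a group, limma with Benjamini-Hochberg, adjusted p = 1.08e-06), and stood at 9.31 to 9.34 after Mbnl1 siRNA. Xrn1, the cytoplasmic 5′ exonuclease of mRNA decay, rose by 0.84 after each siRNA, and its arrays differed between the siRNAs by -0.01. The chaperone gene Dnajc24 rose by 0.78 and 0.70. Among the falls, the keratin gene Krt80 (-0.72 and -0.83), the receptor gene Vipr1 (-0.54 and -0.62), the cytoglobin gene Cygb (-0.52 and -0.55) and the ion transport regulator gene Fxyd7 (-0.51 and -0.54) differed by 0.02 to 0.11 between the siRNAs. Nmnat2, an enzyme of NAD synthesis, stood between these classes: it rose by 1.2 and 0.91, and the difference of 0.28 was itself called. The same held for Ppargc1a, a coactivator of mitochondrial genes (1.00 and 0.61). Enpp2, which makes lysophosphatidic acid, rose by 0.84 after Cugbp1 siRNA and by more, 1.59, after Mbnl1 siRNA, a called difference of -0.75 (adjusted p = 0.000707). In Casp12 (0.85 and 0.60) and the muscle membrane gene Rtn2 (0.78 and 0.45) the difference between the siRNAs did not pass the test (adjusted p = 0.0519 and 0.114).

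Gene lists are given below by counts and medians, beside those over all genes tested, where the median change was 0.05. Since their small changes follow the scaling, counts with arrays centred on the probe sets kept, where that median was -0.04, stand beside each list. Centring turned the counts over all 12646 genes too, to 1372 higher and 3206 lower, and the centred counts of a list are to be read beside these. At the main setting 26% of all genes were called higher and 12.7% lower against control. Against both other groups 2.46% of all genes were higher and 0.996% lower.

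Of 37 genes of the NRF2 and glutathione system, the cell's antioxidant defence, 18 rose (48.6%, 26% over all genes) and 2 fell (5.41%, 12.7% over all genes), with a median of 0.13. With centred arrays 6 were called in each direction. Called higher against both control and Mbnl1 siRNA were 5, and 0 were lower. Besides Hmox1 these were Gclm, the modifier subunit of the enzyme that begins glutathione synthesis, the pentose phosphate enzyme gene Pgd, the transferase gene Gstm1 and the mitochondrial dismutase gene Sod2. Gclm went from 11.18, 11.15 and 11.15 to 11.33, 11.39 and 11.38, a rise of 0.21 (SE 0.04, n = 3 a group, limma with Benjamini-Hochberg, adjusted p = 0.00404), against -0.21 after Mbnl1 siRNA. Pgd went from 10.87, 10.77 and 10.77 to 11.16, 11.04 and 11.12 (log2 change 0.30, adjusted p = 0.00144). Gstm1, close to the threshold against Mbnl1 siRNA (adjusted p = 0.0479), rose by 0.29 and Sod2 by 0.28, and after Mbnl1 siRNA Pgd, Gstm1 and Sod2 differed from control by -0.01, 0.09 and -0.01. The groups did not overlap in any of the 5. Other members moved to a like extent after Mbnl1 siRNA. Nqo1, a standard NRF2 target, fell by 0.29 and the cystine transporter gene Slc7a11 rose by 0.34, against -0.23 and 0.36.

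NRF2 binds antioxidant response elements, whose core is TGACNNNGC. In the 300 bases around the annotated starts in RefSeq (GRCm38.p6, both strands searched, 32 of the 37 genes matched), 10 of 32 list genes (31.2%) held that core, against 16.9% of the 10093 tested genes with a window. Among the list genes that were higher, 4 of 15 (26.7%) did: Gclm, Pgd, Gstm5 and Mgst1. The sequences are shown for the 2 of them that were also called against Mbnl1 siRNA, with the core in capitals. The first is the 250 bases before the start of Gclm, chr3:122245307-122245556 on the plus strand, where the core lies on the opposite strand with its first printed base at position -134 from the start. The second is 30 bases around the core of Pgd, chr4:149166060-149166089 on the minus strand, where it begins at position 4 after one of the annotated starts. The site GTGGGAA, bound by the Notch partner RBPJ, was searched in the same way. It was found in 5 of 28 Notch genes (17.9%), in 0 of the 6 that were higher and in 7.2% of tested genes. A match is a description of the letters and shows no binding, and Hmox1 was not matched.
Gclm: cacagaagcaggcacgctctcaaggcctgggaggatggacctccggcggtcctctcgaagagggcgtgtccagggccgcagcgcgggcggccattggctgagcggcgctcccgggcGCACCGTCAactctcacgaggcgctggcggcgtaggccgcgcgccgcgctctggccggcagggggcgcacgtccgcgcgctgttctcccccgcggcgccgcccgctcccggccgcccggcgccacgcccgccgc
Pgd: atttcagagcTGACATTGCactgatcggac

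Of 75 mitochondrial ribosomal protein genes 28 rose (37.3%) and 2 fell, with a median of 0.14, and 9 were higher against both other groups with 0 lower. With centred arrays 12 rose and 6 fell. Mrps35 went from 8.07, 8.02 and 8.07 to 8.34, 8.27 and 8.44 (log2 change 0.30, adjusted p = 0.00541, limma with Benjamini-Hochberg) and Mrpl50 rose by 0.28, against 0.00 and 0.03 after Mbnl1 siRNA. Of 71 respiratory chain and ATP synthase genes 21 rose (29.6%) and 0 fell at the adjusted threshold, with a median of 0.11. With centred arrays only 2 rose and 6 fell, with a median of 0 against -0.04 over all genes. The balance of this list thus turned along with that of all genes. Uqcrc1 and Uqcrc2, core subunits of complex III, rose by 0.21 and 0.18, and Ndufa9 of complex I by 0.25, against 0.02, 0.03 and 0.03 after Mbnl1 siRNA.

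Notch signalling, in which a ligand on one cell frees the intracellular part of a receptor on the next to act with RBPJ, is known to hold back myoblast differentiation. Of 34 of its genes 10 rose (29.4%) and 5 fell (14.7%), close to the shares over all genes (26% and 12.7%). The median was 0.03, and 0.05 after Mbnl1 siRNA, and with centred arrays 7 rose and 11 fell. The members called against both other groups were ligands, a receptor, a target and the DNA-binding partner. The ligand gene Jag1 read 7.32, 7.49 and 7.09 on the controls and 8.04, 8.04 and 8.18 after Cugbp1 siRNA (log2 change 0.79, SE 0.09, n = 3 a group, limma with Benjamini-Hochberg, adjusted p = 0.000279), against a rise of 0.43 after Mbnl1 siRNA. The ligand gene Dll1 rose from 7.53, 7.29 and 7.38 to 7.81, 7.71 and 7.81. The receptor gene Notch1 rose from 8.15, 8.19 and 8.12 to 8.66, 8.84 and 8.94 (log2 change 0.67, adjusted p = 0.000157), against 0.27. The target gene Hes1 rose by 0.33 and the DNA-binding partner gene Rbpj fell by 0.28, from 9.55, 9.58 and 9.59 to 9.21, 9.30 and 9.37. After Mbnl1 siRNA Dll1, Hes1 and Rbpj differed from control by 0.09, 0.04 and 0.04, none of them called. The Cugbp1 siRNA and control arrays overlapped in none of these 5 genes, which were chosen by their calls (no overlap in 48.8% of all genes). Hey1, another target, rose by 0.55 and 0.57.

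Of 54 genes for sphingolipid and phospholipid metabolism 16 rose and 7 fell, close to the shares over all genes (29.6% and 13%), and with centred arrays 10 rose and 15 fell. Called against both other groups were 4 higher and 2 lower. Of these, Sgms2 and Plpp3 are described above, and the phospholipid genes Lpcat4 and Pcyt2 rose by 0.22 and 0.19. The ganglioside GM3 synthase gene St3gal5 fell from 9.74, 9.69 and 9.70 to 9.25, 9.35 and 9.41 (log2 change -0.37, SE 0.06, n = 3 a group, limma with Benjamini-Hochberg, adjusted p = 0.00153) while it was up by 0.21 after Mbnl1 siRNA. B4galt6, which makes the lactosylceramide that GM3 synthase uses, went the other way, from 9.53, 9.55 and 9.43 to 9.83, 9.89 and 10.00 (log2 change 0.41, adjusted p = 0.00099). The sphingomyelin synthase-related gene Samd8 fell by 0.22 against control, and its difference from Mbnl1 siRNA was not called (adjusted p = 0.0758).

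CELF1 acts with the deadenylation machinery. Genes of mRNA decay rose more often than they fell, as did all genes at the main setting. Of 61 genes 23 rose (37.7%, 26% over all genes) and 1 fell (1.64%, 12.7% over all genes). The median was 0.13, and 0.09 after Mbnl1 siRNA, and with centred arrays 8 rose and 5 fell. Called against both other groups were 2 higher and 1 lower. Parn, the deadenylase that CELF1 is known to recruit, read 8.44, 8.39 and 8.33 on the controls and 8.66, 8.66 and 8.63 after Cugbp1 siRNA, a rise of 0.27 (SE 0.05, n = 3 a group, limma with Benjamini-Hochberg, adjusted p = 0.00265) against -0.10 after Mbnl1 siRNA. The exosome nuclease gene Dis3 rose by 0.27, against -0.06. Pabpc4, a cytoplasmic poly(A)-binding protein, fell from 10.21, 10.24 and 10.26 to 9.89, 9.88 and 9.89, with no overlap. Its change of -0.35 (adjusted p = 0.00044) compares with -0.02 after Mbnl1 siRNA. Xrn1 and the decay factor gene Zfp36l1 (0.46 and 0.53) rose to a like extent after each siRNA.

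mRNAs that CELF1 is reported to regulate were called in 39.1% of cases, against 38.8% of all genes. Of 23 tested, 8 rose (34.8%) and 1 fell, with a median of 0.10 and 4 higher and 5 lower with centred arrays, and 0 departed from both other groups. The gap junction gene Gja1 rose by 0.39 after Cugbp1 siRNA and 0.41 after Mbnl1 siRNA, Myc by 0.35 and 0.20, Jun by 0.22 and 0.24, and Mef2a by 0.28 and 0.31. In the CELF and MBNL family itself 9 genes were tested. At the main setting 1 was higher (11.1%, 26% over all genes) and 5 lower (55.6%, 12.7% over all genes), Celf1 among them. With centred arrays the counts were also 1 and 5. Celf6, Celf3, Celf5 and Mbnl3 were lower by 0.46, 0.34, 0.28 and 0.23 and Celf2 higher by 0.24, and each was also called after Mbnl1 siRNA in the same direction (-0.50, -0.27, -0.20, -0.38 and 0.26). Without the filter on weak signals Celf6 stood at -0.10 (adjusted p = 0.403, limma with Benjamini-Hochberg) and Celf5 at -0.16 (adjusted p = 0.0861).

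Among the 15 muscle identity genes 5 rose (33.3%) and 1 fell (6.67%), with 3 and 3 with centred arrays. The fusion protein gene Mymk, on 4 probe sets, went from 7.88, 7.98 and 8.02 to 8.57, 8.40 and 8.55 (log2 change 0.55, SE 0.07, n = 3 a group, limma with Benjamini-Hochberg, adjusted p = 0.00046). Cdh15, the cadherin of satellite cells and myoblasts, went from 9.91, 9.95 and 9.89 to 10.17, 10.21 and 10.33 (log2 change 0.32, adjusted p = 0.00602). In both genes the Cugbp1 siRNA arrays lay above all controls, and after Mbnl1 siRNA they differed from control by 0.04 and 0.01. Mymx, whose product acts with that of Mymk in fusion, moved the other way, by -0.46 on 3 probe sets, and by -0.24 after Mbnl1 siRNA. Myod1 rose by 0.30, but by 0.17 with centred arrays (adjusted p = 0.108), and Des differed by -0.01. At the neuromuscular junction 10 of 25 genes rose (40%) and 2 fell (8%), with 4 and 3 with centred arrays. Chrnd, the delta subunit of the acetylcholine receptor, rose by 0.14 from 9.37, 9.31 and 9.38 to 9.51, 9.50 and 9.49 (adjusted p = 0.0454), against -0.28 after Mbnl1 siRNA. Of 45 genes of calcium handling 13 rose and 6 fell (28.9% and 13.3%, against 26% and 12.7% over all genes), and with centred arrays 6 rose and 12 fell. The channel gene Tmem38b rose by 0.47 and the calcineurin subunit gene Ppp3cb by 0.22, both also called against Mbnl1 siRNA.

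In the growth factor list, 24 of 53 genes of insulin, IGF and FGF signalling rose (45.3%) and 1 fell (1.89%), with a median of 0.13, and with centred arrays 10 rose and 7 fell. Pik3r1, a regulatory subunit of PI3 kinase, rose by 0.52, Spred1 by 0.35, Irs1 by 0.31 and Igf1r by 0.30, and after Mbnl1 siRNA the same genes differed by 0.54, 0.41, 0.16 and 0.19. Zinc-finger genes named Zfp rose in 90 of 220 cases (40.9%, 26% over all genes) and fell in 9 (4.09%, 12.7% over all genes). With centred arrays 48 rose and 20 fell. The list median was 0.13 after Cugbp1 siRNA and also after Mbnl1 siRNA, and 3 genes were higher against both other groups and 0 lower. Zfp101, on 5 probe sets, rose from 7.06, 6.94 and 7.07 to 7.99, 8.17 and 7.92, against 0.22 after Mbnl1 siRNA. In 50 Wnt genes 14 were higher and 13 lower (28% and 26%), and in 70 guidance genes 18 and 18 (25.7% each). With centred arrays these became 5 and 17, and 10 and 28. Lef1, a nuclear effector of Wnt signalling, rose by 0.39 and was the only Wnt gene of the list called against both other groups. Of 43 cytosolic ribosomal protein genes 5 were higher (11.6%) and 2 lower (4.65%), but with centred arrays 1 was higher and 14 lower. Of 1369 genes for taste and odorant receptors and keratin-associated proteins, 12 passed the filter, of which 6 were lower and 0 higher (median -0.22, and -0.21 after Mbnl1 siRNA; 9 lower with centred arrays). Without the filter 643 were tested, with 18 higher, 20 lower and a median of -0.01.

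**Figure D4:**
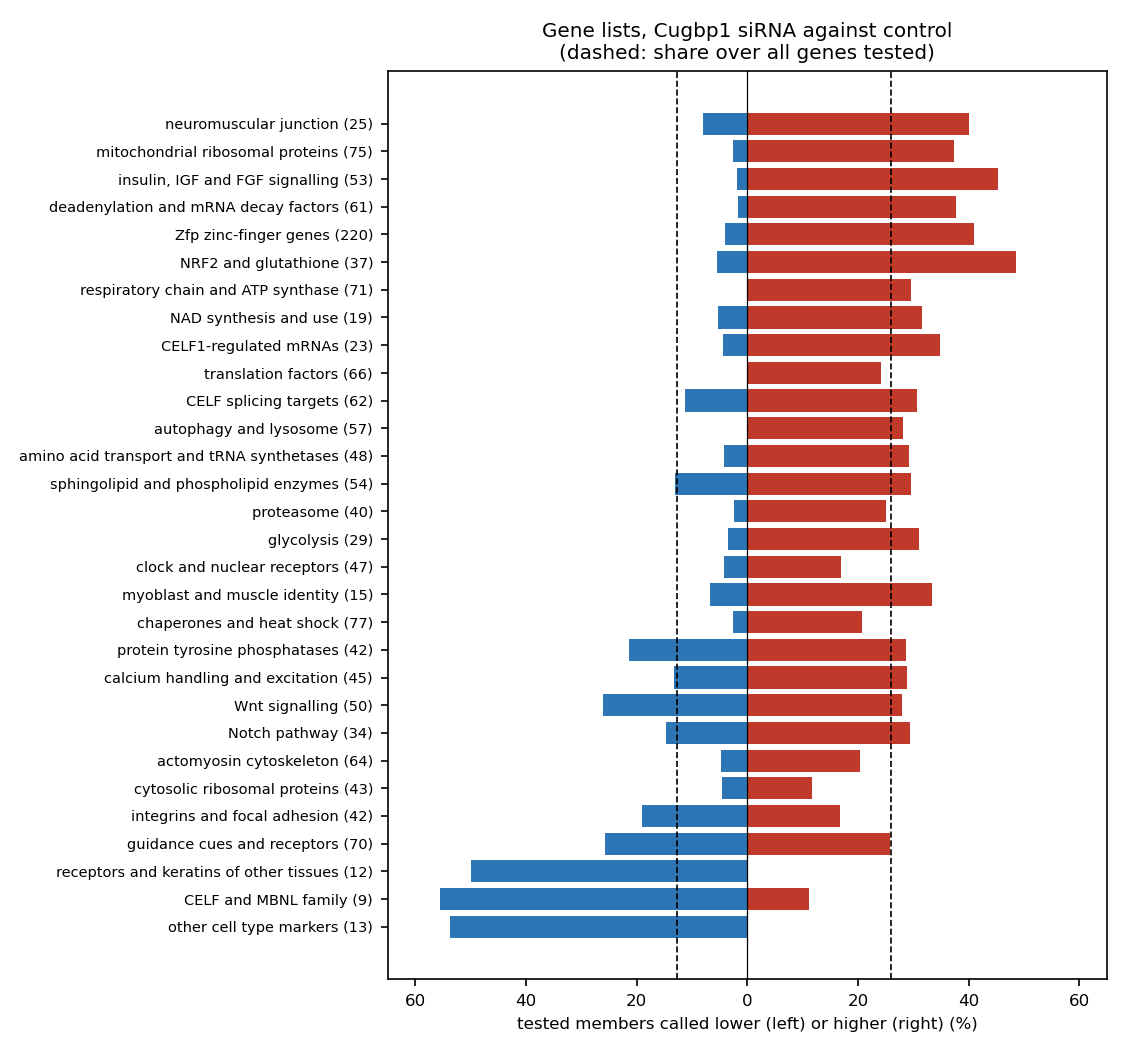
Bars give the share (%) of each list's tested genes (their number in brackets) called higher (right, red) or lower (left, blue) after Cugbp1 siRNA against control, and dashed lines give the shares over all genes, 26% higher and 12.7% lower. The NRF2 and glutathione list reaches 48.6% higher, and the markers of other cell types 53.8% lower. With centred arrays, not shown, the respiratory chain and Notch lists have more lower than higher calls, as all genes do.

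Exon usage was read as the departure of a probe set from its gene value on the same array, so that a change of the whole gene cancels. Of 150154 probe sets in 9455 genes, limma with Benjamini-Hochberg called 5804 against control (3.87%), 2184 higher (1.45%) and 3620 lower (2.41%), and 3756 genes (39.7%) had at least 1. Against Mbnl1 siRNA 41 probe sets (0.0273%) were called, and 14 (0.00932%) were called in the same direction against both, 7 higher (0.00466%) and 7 lower (0.00466%). These 14 lay in 10 genes, and 4 to 9 probe sets were called when any single array was left out. Of 1 probe set checked in each of the 10 genes, 4 lost the call against Mbnl1 siRNA with the replicate block and 6 kept it. With the mean of probe sets as gene value 2 lost that call and 8 kept it. The count against control was 2124 with the 6 arrays of the contrast alone. It was 2446 without control replicate 3, and 2593 and 1659 without Cugbp1 siRNA replicates 2 and 3. Without the filter on weak signals 0 were called against both, with more probe sets tested at once.

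The clearest pattern was in Tor1aip2, a protein of the endoplasmic reticulum that activates torsin ATPases. Of its 12 probe sets, 5 were low after Cugbp1 siRNA by 0.85 to 1.1 in level, without overlap between the groups, while the other 7 differed by 0.02 to 0.44. The probe set 5288965 read 9.85, 9.88 and 9.79 on the controls, 8.79, 8.94 and 9.01 after Cugbp1 siRNA, and 9.83, 9.90 and 9.97 after Mbnl1 siRNA. Its departure from the gene fell by 0.86 (SE 0.09, n = 3 a group, limma with Benjamini-Hochberg, adjusted p = 0.00215), and that of 4643973 and 4891303 by 0.79 and 0.84. The remaining 2, 4448343 and 5263128, were called against control (departures of -0.77 and -1.02, adjusted p = 0.0422 and 0.0141) but not against Mbnl1 siRNA (adjusted p = 0.327 and 0.120). The gene value of Tor1aip2 differed by -0.07 and was not called. Against Mbnl1 siRNA, 4891303 was no longer called without control replicate 1 (adjusted p = 0.0576) or 3 (0.0548), or without Cugbp1 siRNA replicate 1 (0.128) or 2 (0.148).

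Single probe sets of 2 further genes moved to opposite sides of the controls after the siRNAs. Myl6 encodes the essential light chain of non-muscle and smooth muscle myosin, and its transcripts include or skip a short alternative exon. Its probe set 5558222 read 11.68, 11.61 and 11.64 on the controls, 12.28, 12.13 and 12.07 after Cugbp1 siRNA, and 11.03, 10.84 and 10.95 after Mbnl1 siRNA, with no overlap between any 2 groups. The other 14 probe sets of Myl6 differed by -0.22 to 0.13 between Cugbp1 siRNA and control. The departure rose by 0.56 (SE 0.10, n = 3 a group, limma with Benjamini-Hochberg, adjusted p = 0.0160), was -0.61 after Mbnl1 siRNA (adjusted p = 0.00737), and differed by 1.17 between the siRNAs (adjusted p = 0.00271). Without Cugbp1 siRNA replicate 3 the call against control was lost (0.58, adjusted p = 0.0506). Mia2, a transport protein of endoplasmic reticulum exit sites, had the probe set 5596927 at 7.53, 7.28 and 7.12 on the controls, 8.17, 8.70 and 8.73 after Cugbp1 siRNA, and 6.92, 6.83 and 6.81 after Mbnl1 siRNA. Again the 3 groups were apart, with departures of 1.09 and -0.65 and a difference of 1.74 between the siRNAs (adjusted p = 0.00261). The call of Mia2 against control held under each alternative run.

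The other calls against both groups each rested on 1 probe set. Ngfr rose as a gene, but its probe set 5538027 stayed at 8.64, 8.47 and 8.49 on the controls and 8.61, 8.44 and 8.28 after Cugbp1 siRNA, so that its departure fell by 0.99 (adjusted p = 0.00297, limma with Benjamini-Hochberg). The Mbnl1 probe set 5068117 had a like level after both siRNAs (9.45 in control, 8.83 and 8.84), while its departures from the gene value, which is that of the other siRNA's target, were -0.67 and 0.74. In Cmah, 5372294 departed by 0.68, in Erlin2, 4828655 by 0.49, in Zmiz1, a transcriptional coactivator, 4754697 by -0.42, and in Chrng, the fetal gamma subunit of the acetylcholine receptor, 5315245 by -0.47. In Erlin2 the probe set was nearly level (9.06 in control, 8.94 and 9.08 after the siRNAs) while the gene moved. In Zmiz1 it was also nearly level against control (11.37 and 11.31 after Cugbp1 siRNA) while the gene rose by 0.36. The Chrng probe set had a like level after both siRNAs (9.49 in control, 9.25 and 9.27). That of Cmah was highest after Mbnl1 siRNA (9.06 in control, 9.50 after Cugbp1 siRNA and 9.85). The calls against Mbnl1 siRNA were near the threshold in Ngfr (adjusted p = 0.0379), Chrng (0.0357) and Zmiz1 (0.0298). Leaving out any Cugbp1 siRNA array ended them in Ngfr, Chrng and Zmiz1 (adjusted p of 0.129 to 0.200, 0.146 to 0.181 and 0.0756 to 0.148), as did leaving out control replicate 3 in each (0.0631, 0.0736 and 0.0548), and control replicate 1 (0.0589 and 0.0775) or 2 (0.0842 and 0.0693) in Ngfr and Chrng. In Cmah it was lost without Cugbp1 siRNA replicate 1 (0.0664) or 3 (0.0503), and in Erlin2 without replicate 2 (0.0507). Against control, Erlin2 was lost without Cugbp1 siRNA replicate 2 (0.0649) or 3 (0.0642), and the Mbnl1 probe set without these (0.0520 and 0.0717) or without control replicate 3 (0.0529). The remaining 3 of the 14 were in Celf1 (departures of 2.02, 1.2 and 1.04), where a probe set that falls less than its gene counts as a departure.

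**Figure D5:**
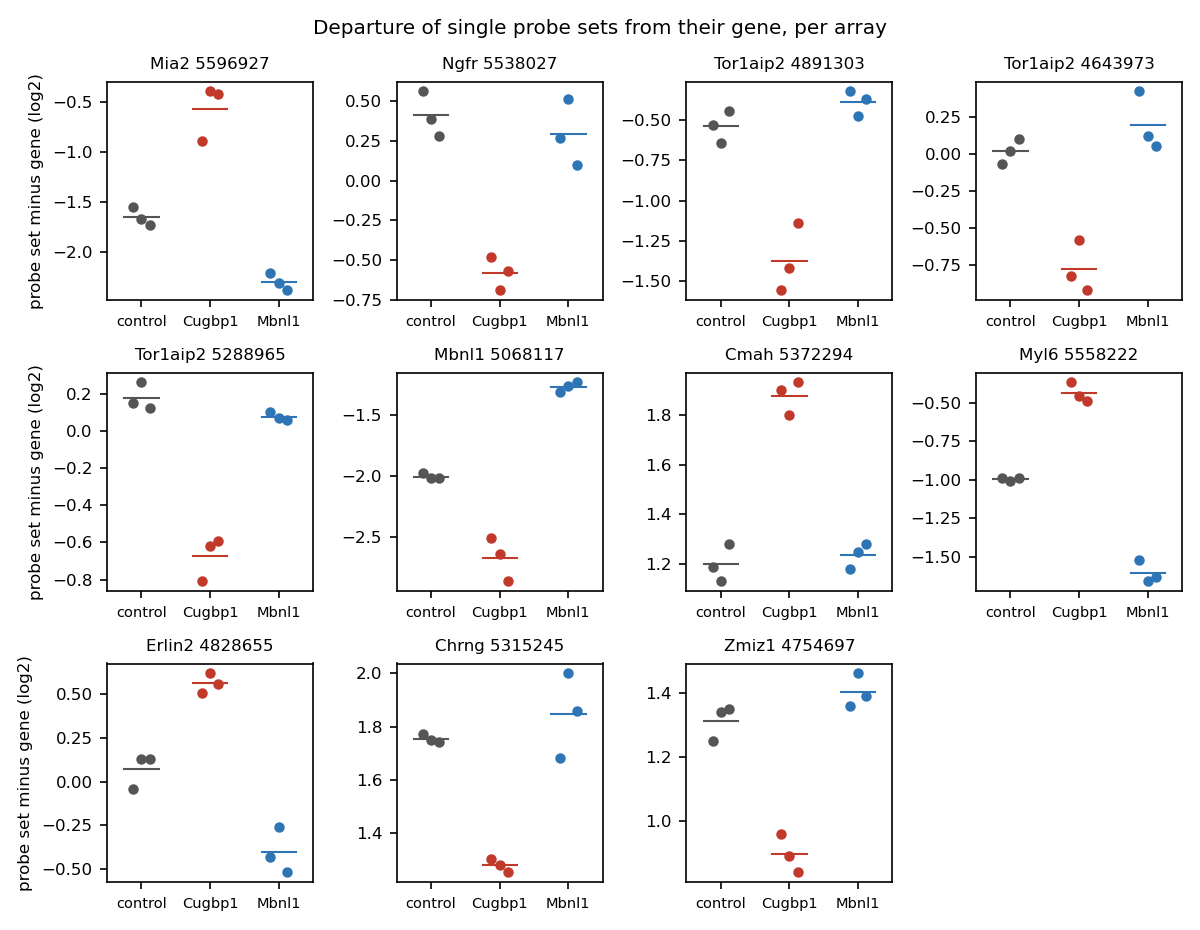
Each panel is 1 probe set outside Celf1 that was called against both control and Mbnl1 siRNA, with its log2 value minus the gene value on the vertical axis (a range of its own in each panel), points for single arrays and lines for the mean of 3. The 3 Tor1aip2 panels are low only on the Cugbp1 siRNA arrays, and the Myl6 and Mia2 panels have the controls between the siRNA groups.

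Genes with exons known to be controlled by CELF or MBNL proteins in muscle had a called probe set in 30 of 59 cases (50.8%), against 39.7% of all genes tested. These genes hold more tested probe sets each (1507 in 59 genes, 150154 in all 9455), and so have more occasions for a call. By probe set the shares were closer, with 67 of the 1507 called (4.45%, 3.87% over all). Of those 67, 2 were called against both other groups. Values after both siRNAs, measured against the same control arrays, are given for 5 of these genes. In Map4k4, a kinase of stress signalling, 5038180 departed by -1.08 after Cugbp1 siRNA and -1.09 after Mbnl1 siRNA. In Ryr1, the calcium release channel of muscle, 5514150 departed by 1.07 and 0.99, in the kinase gene Wnk1, 4866969 by 1.00 and 0.99, in the calcium channel subunit gene Cacnb1, 4681393 by 0.67 and 0.75, and in the laminin receptor gene Itga6, 5250863 by -0.84 and -1.14. The levels of the Ryr1 and Cacnb1 probe sets were 6.32 and 6.86 in control, under the filter at log2 7. They were 7.64 and 7.74 after Cugbp1 siRNA, and 7.44 and 7.73 after Mbnl1 siRNA. These 2 passed the filter on the mean over all arrays only through the siRNA groups, which favoured a rise in advance. For none of these 5 was a difference between the siRNAs called (adjusted p of 0.754 to 0.997 by limma with Benjamini-Hochberg). The widest 95% interval of those differences, in Ryr1, reached from -0.43 to 0.58, so a moderate difference could have gone undetected. Some of these calls against control were lost under other settings. Without the filter on weak signals those in Map4k4, Ryr1, Itga6 and Cacnb1 were lost (adjusted p of 0.0744 to 0.114). Ryr1 was lost without control replicate 1 or 3 (adjusted p = 0.0627 and 0.0877) and without Cugbp1 siRNA replicate 1 or 3 (0.0784 and 0.103), and stood at 0.0562 with the replicate block and 0.0750 with 6 arrays. Map4k4 was lost without control replicate 3 (0.0523) or Cugbp1 siRNA replicate 3 (0.0679), and Itga6 without the latter (0.0507). Cacnb1 was lost without control replicate 3 (0.0597) or Cugbp1 siRNA replicate 2 or 3 (0.0647 and 0.0563), and with 6 arrays (0.0625).

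Departures that were larger in size were found outside that list, and are again given beside those after Mbnl1 siRNA, which share the control arrays. In Nckap5l, 5355089 read 0.46, 1.48 and 1.41 relative to its gene on the controls and -0.60, -0.56 and -0.74 after Cugbp1 siRNA, a change of -1.75 (SE 0.22, n = 3 a group, limma with Benjamini-Hochberg, adjusted p = 0.00343), against -1.82 after Mbnl1 siRNA. In the phosphatase gene Ssh3, which acts on cofilin, 4307052 departed by 1.41 and 1.2, in the kinase gene Map4k1, 4820888 by 1.71 and 1.25, and in the actin-binding gene Dbn1, 5585241 by -1.49 and -1.81. The Ssh3 and Map4k1 probe sets had control levels of 7.17 and 7.19, near the filter at log2 7. In Agrn, whose product agrin organises the neuromuscular junction, 5573544 went from 0.97, 1.64 and 1.31 to 0.12, -0.66 and -0.51, a change of -1.66 against -1.12. In the nucleotidase gene Nt5c, 4970708 departed by 1.11 and 0.40, and the difference between the siRNAs was not called (adjusted p = 0.451).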

How the data were processed

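RNA of 9 exon arrays was compared. The authors deposited a linear intensity for 1195555 probe sets on each array, made with RMA in Affymetrix Expression Console on mm9, per the submitters' processing notes, with versions not given in the sources used here. Intensities were log2-transformed here and not normalised again. Platform annotation gave 1 symbol to 316997 probe sets, several to 6571 and none to 871987 that it does not list; 4213 symbols were updated through RefSeq. Probe sets with a mean over all arrays at or above the 75th percentile (log2 7) were kept. The gene value is the Tukey median polish of at least 3 of them (median 10). Files were read with data.table, version 1.17.8, in R, version 4.3.3. There limma 3.58.1 fitted 1 mean per group to all 9 arrays, and p-values were adjusted with Benjamini-Hochberg over all genes tested, with a threshold of 0.05. Exon usage is a probe set's log2 value minus its gene value on the same array, fitted with a variance trend in genes with at least 6 kept probe sets.

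Named genes are the 12 largest rises and 12 largest falls on at least 6 probe sets, the 10 largest in each direction among genes called against both control and Mbnl1 siRNA, up to 4 called members of each list, and members needed by role. Probe sets were named by similar rules (12 departures in each direction, and up to 8 against both groups), and further ones named were chosen after their values were seen. Members and lists were chosen with earlier results of these data known. Precision is limited by the number of arrays. The fits were tested on simulated data. Alternatives changed the scaling, the filter, the gene summary, the arrays and the model, and scalings over the kept probe sets were added after the data were seen. All 9 columns matched a sample.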

Additional observations from a re-analysis of the deposited data

Results flagged for a closer look

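Responses with opposite signs after the siRNAs, each called against control and different between the siRNAs (limma with Benjamini-Hochberg), were seen in 13 of the genes named above. The difference between Cugbp1 siRNA and Mbnl1 siRNA was -1.36 in Tmem123 (adjusted p = 2.58e-07), -1.10 in Erlin2 (2.94e-06), -0.98 in Cmah (5.64e-06), -0.93 in Mmp10 (6.84e-05) and -0.81 in Mmp12 (0.000707). It was -0.78 in Sorbs2 (1.36e-05), -0.70 in Sema7a (9.06e-05) and -0.58 in St3gal5 (0.000351). Higher after Cugbp1 siRNA were Hmox1 (0.82, 6.99e-05), Podxl (0.60, 0.000217), Mertk (0.50, 0.000626), Chrnd (0.42, 0.000751) and Gclm (0.41, 0.000254). Single probe sets whose departures had opposite signs were 5596927 of Mia2 (difference 1.74, adjusted p = 0.00261) and 5558222 of Myl6 (1.17, 0.00271), where the level of the probe set moved to both sides of the controls. In 5068117 of Mbnl1 (-1.41, 0.00316) the level was alike after both siRNAs (8.83 and 8.84, 9.45 in control). The Mbnl1 gene value differed by 0.05 after Cugbp1 siRNA, so that departure was mostly the fall of the probe set itself. After Mbnl1 siRNA the gene fell by more than the probe set, with a change of -1.35. In 4828655 of Erlin2 (0.96, 0.00495) the level stayed near control (8.94 and 9.08, 9.06 in control), so its departures follow the gene value.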

How the results depend on the processing

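Scaling set the balance of rises and falls: against 3293 higher and 1609 lower, quantile normalization over the kept probe sets gave 1651 and 2732, and centring on them 1372 and 3206; both were added after the data were seen. With a filter at the 90th percentile 2762 genes were called, 2168 higher, 594 lower and 53 at least 1.5-fold. With at least 6 probe sets a gene, 855 were lower and 62 changed at least 1.5-fold.

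Exon usage calls, 5804 at the main setting, were 723 without the filter, 3476 with a filter at the median, 3028 at the 90th percentile, 2124 with the 6 arrays alone and 11162 with diffSplice. The 14 probe sets called against both groups became 0, 6, 9 (genes changed by under 0.5 only) and 144 under no filter, the median filter, that restriction and diffSplice. Genes called against both were 205 without the filter.

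Replicate numbers did not pair the arrays, since deviations of same-numbered arrays correlated between -0.10 and 0.12. With the replicate block 4567 genes and 6 probe sets against both were called. Leaving out 1 array at a time gave 3447 to 5327 genes called, 2343 to 3846 higher and 1104 to 1513 lower, 232 to 549 genes against both, 1659 to 6120 exon usage calls and 4 to 9 against both. Of the 4902 genes, 2981 were shared with the calls after centring on the kept probe sets, each in the same direction. No gene or probe set that was checked singly had a call that reversed its sign. Among shared calls of all genes the direction was kept by 2279 of 2284 at the 90th percentile and by 3025 of 3026 without the filter. Signal over background limits the changes of genes near log2 7.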

Other observations

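Some genes called against both control and Mbnl1 siRNA rested on 3 to 5 probe sets and were not described above (limma with Benjamini-Hochberg, n = 3 arrays a group; picked after their values were seen). The growth factor gene Pgf, a ligand of a VEGF receptor, rose by 0.52, and its difference from Mbnl1 siRNA was 0.39. The glutathione transferase gene Gsta3 rose by 0.42 (difference 0.53), the serotonin receptor gene Htr1b by 0.71 (difference 0.39) and the Mediator subunit gene Med18 by 0.40 (difference 0.38). The histone gene H4c12 rose by 1.44 (difference 1.07), but it is 1 of many nearly identical genes whose signal cannot be told apart.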
